A study of Danio rerio and Oryzias latipes with 22 samples.

Results

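Neuregulins, the Hb-egf growth factors and the Erbb receptors that bind them were followed across the cell types of the fish ventricle. The genes were 9 members taken by exact symbol, comprising the ligands *nrg1*, *nrg2a*, *hbegfa* and *hbegfb* and the receptors *erbb2*, *erbb3a*, *erbb3b*, *erbb4a* and *egfra*. Of the 28107 symbols listed in every zebrafish matrix all 9 were members, and of the 23831 medaka symbols 8 were, since *hbegfb* is not listed in medaka under that symbol. Ventricles came from wild-type Tübingen zebrafish and wild-type CAB medaka, both stated to be 6 to 18 months old, so that neither species carried a transgene or a deletion. Injured fish had a cryoinjury of the ventricle apex, made with a probe cooled in liquid nitrogen, and were sampled at 3 or 14 days post-injury (dpi). Uninjured ventricles served as the reference in each species. Single-cell RNA sequencing gave 13 zebrafish samples (4 uninjured, 3 at 3 dpi and 6 at 14 dpi) and 9 medaka samples (4 uninjured, 3 at 3 dpi and 2 at 14 dpi). The labels number replicates without saying whether each is 1 animal or a pool, so that p-values measure the spread between these samples, which may in part be technical. The comparison asks which cells supply and which cells receive these signals in zebrafish, which regenerate the heart, and in medaka, which scar.

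Neuregulins are growth factors with an EGF-like domain that bind Erbb3 and Erbb4, and Hb-egf binds Egfr and Erbb4. Erbb2 has no known ligand of its own and signals as the preferred partner of the other receptors, while the kinase of Erbb3 is weak, so that signalling needs pairs of receptors. In the heart, neuregulin from endocardial or epicardial cells acts on Erbb2 and Erbb4 of cardiomyocytes, where it is known for roles in trabeculation and in cardiomyocyte proliferation. Hb-egf is made as a membrane protein and released by metalloproteases, and active receptors signal through the Ras-ERK and PI3K-Akt pathways.

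Libraries held 11107238 to 75811359 unique molecular identifiers (UMIs), each of which marks a captured mRNA molecule. Of 126955 deposited barcodes, 80138 had at least 200 genes and at most 40% of UMIs from mitochondrial genes, 48409 in zebrafish and 31729 in medaka. The median per cell lay between 974 and 6448 UMIs by library. At most 0.364% of the barcodes were shared in any of the 231 pairs of libraries. Cells were clustered in each species without the members and were named from marker genes. In zebrafish 16630 cells were endothelial-like, 10491 cardiomyocyte-like, 3955 epicardial-like, 3133 leukocyte-like and 2097 thrombocyte-like. In medaka the counts were 6426 endothelial-like, 4464 cardiomyocyte-like, 546 epicardial-like, 7379 leukocyte-like and 1204 thrombocyte-like cells. They are called by the cell type alone from here on. No medaka sample at 3 dpi held 10 or more epicardial cells, so that the early response of the medaka epicardium could not be measured.

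Levels are UMIs per 1000000 non-mitochondrial UMIs (CPM), summed over the cells of a type in a sample. Zebrafish uninjured replicates 1 and 2 were counted with an earlier program version and a shorter gene list than the other 11 zebrafish samples, and they stand apart for several members, by the widest margin for *erbb2* and *hbegfa*. In cardiomyocytes *erbb2* measured 3.70 and 2.96 CPM in uninjured replicates 1 and 2, against 59.96 and 55.0 CPM in uninjured replicates 3 and 4. In endothelial cells *hbegfa* went the other way, with 382 and 261 CPM in uninjured replicates 1 and 2 against 21.4 and 37.3 CPM in uninjured replicates 3 and 4. No injured sample was counted in the way of uninjured replicates 1 and 2, so their comparison with injured samples mixes gene list and condition. Uninjured replicates 3 and 4 share the program version and gene list of the injured samples. They held 2 and 8 erythroid cells, against 315 and 383 in uninjured replicates 1 and 2 and 276 to 2273 in injured samples. The part of this difference in fits with uninjured replicates 3 and 4 only was not tested. The gap between the uninjured pairs lies within the same condition, and its cause was not tested. Results of most members that rest on uninjured replicates 1 and 2 are given with and without them. For thrombocyte *hbegfb* and cardiomyocyte *erbb4b* only fits with all samples are given, beside the sample values. Epicardial *egfra* and thrombocyte *hbegfb* were also higher in uninjured replicates 1 and 2 than in 3 and 4. Medaka uninjured replicates 1 and 2 stand apart from 3 and 4 too, among others for *erbb2*, *erbb4a*, *egfra* and *hbegfa*, with values given below.

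By mean level among the named cell types, *nrg2a* was highest in endothelial cells and *egfra* in epicardial cells of both species, *hbegfa* was highest in zebrafish endothelial cells and in medaka thrombocytes, and the Erbb4 gene found in cardiomyocytes was *erbb4b* in zebrafish and *erbb4a* in medaka. Cell types of the same samples were compared on the log2(CPM + 1) scale by an exact two-sided sign-flip test, adjusted over all genes tested. Cell types differ in most genes. Of all zebrafish genes tested, 80.7% passed between cardiomyocytes and endothelial cells, 69.6% between cardiomyocytes and epicardial cells, 67.1% between cardiomyocytes and leukocytes, 53.9% between endothelial and epicardial cells, 49.6% between endothelial cells and leukocytes and 51.5% between epicardial cells and leukocytes. In medaka the shares were 79.6% between cardiomyocytes and endothelial cells, 73.6% between cardiomyocytes and leukocytes and 51.4% between endothelial cells and leukocytes. Against thrombocytes, 45.1% of genes passed in zebrafish cardiomyocytes, 40.8% in the endothelium, 41.6% in the epicardium and 33.9% in leukocytes, and in medaka 35.7% in cardiomyocytes, 36.4% in endothelial cells and 32.6% in leukocytes. A member that passed is therefore not set apart by the pass alone, and the size of its difference and the number of samples that show it are given instead. With 6 medaka samples that held enough epicardial cells to be tested, the smallest possible p of 0.0312 let no gene pass after adjustment.

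**Figure D1:**
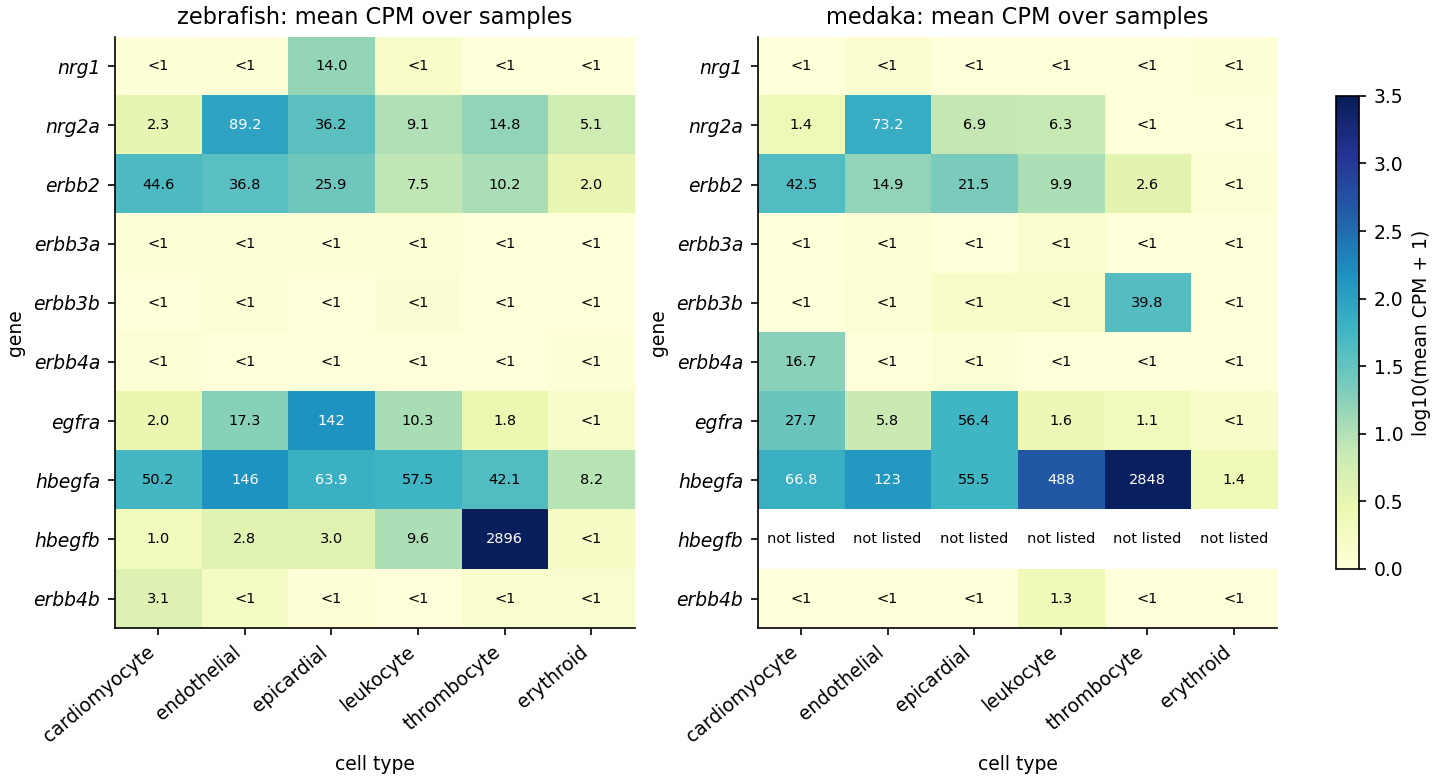
Mean CPM of each member and of *erbb4b* (rows) in 6 cell types (columns) of zebrafish (left) and medaka (right), over the samples that held 10 or more of these cells; the colour is log10(mean CPM + 1) and the printed value is the mean. Zebrafish *nrg1* stands in epicardial cells at 14.0 CPM, *nrg2a* in endothelial cells at 89.2 CPM, and medaka *erbb4a* in cardiomyocytes at 16.7 CPM.

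*nrg1*, the neuregulin known to drive cardiomyocyte proliferation in zebrafish, was highest in epicardial cells among the named zebrafish cell types and almost undetected in medaka. Zebrafish cells without a name averaged more, at 28.6 CPM. *nrg1* averaged 0.0597 ± 0.154 CPM in zebrafish cardiomyocytes, 0.0821 ± 0.129 CPM in the endothelium, 14.0 ± 7.55 CPM in the epicardium and 0.512 ± 1.03 CPM in leukocytes (SD, n = 13 each). Epicardial cells stood above the 3 other types in 13 of 13 samples. On the log2(CPM + 1) scale, cardiomyocytes minus epicardial cells came to -3.72 ± 0.19, endothelial minus epicardial cells to -3.68 ± 0.21 and epicardial cells minus leukocytes to 3.38 ± 0.27 (SE, exact sign-flip test, adjusted p of 0.000784, 0.00116 and 0.00147). Of 786 *nrg1* UMIs in zebrafish cells, 57.5% lay in epicardial cells and 40.1% in clusters that received no name. In medaka 9 UMIs were found in all cells, 7 of them in endothelial cells. None lay in the 546 medaka epicardial cells, which allows up to 0.889 CPM, below the lowest zebrafish epicardial sample of 4.81 CPM, although the gene models of the species were made separately. Only 4 of these medaka cells came from 3 dpi, so that this limit does not cover the early response. Erythroid cells, which should lack the gene, held no *nrg1* UMI in 9589 zebrafish cells, which allows up to 0.150 CPM. Such limits correspond to 3 UMIs and cover counting error only.

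The zebrafish epicardial level of *nrg1* was not shown to change with time. Its lowest, median and highest CPM were 5.86, 10.1 and 22.8 in the 4 uninjured samples, 4.81, 8.83 and 13.7 in the 3 samples at 3 dpi, and 9.34, 16.4 and 31.4 in the 6 samples at 14 dpi. The ranges of the 3 time points overlapped. The log2 fold change against uninjured samples was -0.58 ± 0.45 at 3 dpi and 0.62 ± 0.39 at 14 dpi (SE, edgeR quasi-likelihood test, adjusted p of 0.338 and 0.437). The share of epicardial cells with at least 1 *nrg1* UMI gave another picture, with 16.5% ± 8.69 at 3 dpi (SD, n = 3) against 5.72% ± 4.13 in uninjured samples (SD, n = 4). An exact permutation test of that difference gave p = 0.114, adjusted to 0.359 over 44 shares. The difference ran from 5.84 to 14.1 percentage points with 1 sample left out, and the lowest value came without replicate 3 at 3 dpi. Epicardial cells were deeper at 3 dpi, with a median of 19837.5, 27555 and 26597.5 UMIs per cell in the 3 samples, against 2775 to 6798.5 UMIs in the uninjured samples. Shares thinned to 1000 UMIs, here and below, take only cells with at least 1000 UMIs. The thinned share was 1.02% ± 0.520 at 3 dpi against 1.32% ± 0.878 in uninjured samples, so that the direction turned (exact permutation test, p = 0.743). At 14 dpi the share was 7.45% ± 2.42 (SD, n = 6) against 5.72% ± 4.13 in uninjured samples, and 2.02% ± 0.654 against 1.32% ± 0.878 once thinned (exact permutation test, p = 0.410 and 0.171). The erythroid share was 0% at a median of 704 UMIs per cell.

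**Figure D2:**
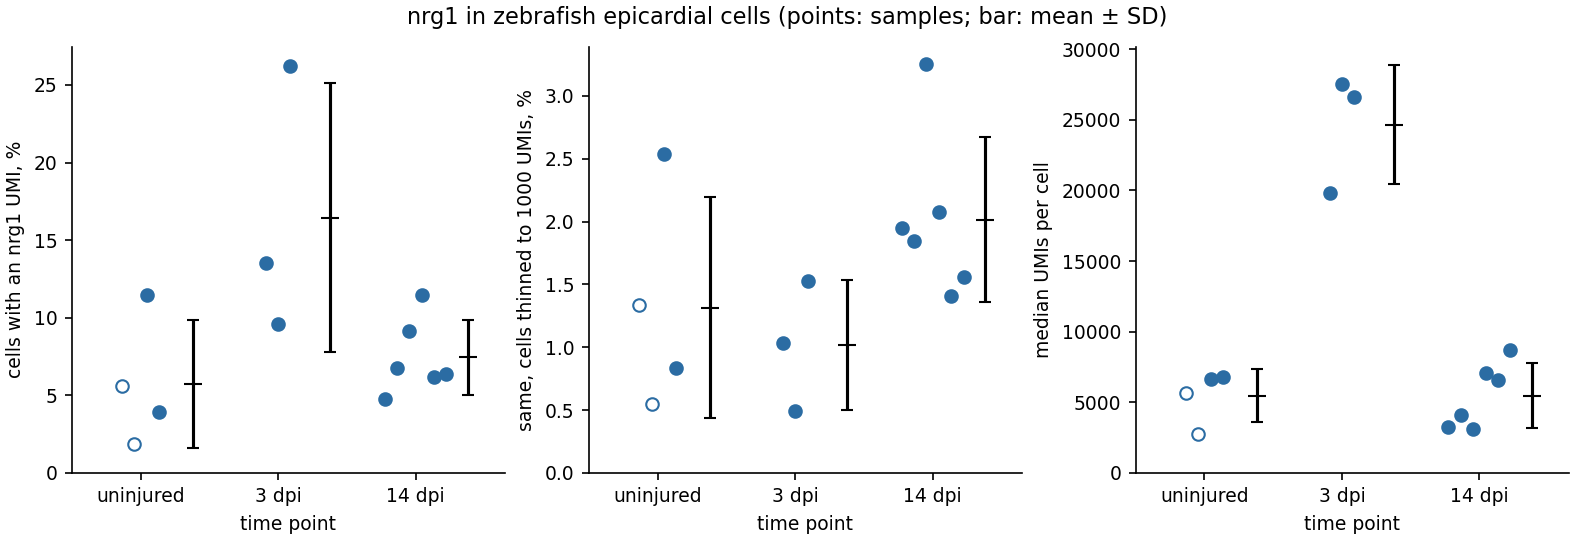
Zebrafish epicardial cells by time point: share of cells with an *nrg1* UMI (left), the same after thinning cells with at least 1000 UMIs to 1000 UMIs (middle) and median UMIs per cell (right); points are samples, open points are uninjured replicates 1 and 2, and bars give the mean ± SD. The raw share at 3 dpi averaged 16.5% where the cells were deepest, and the thinned share averaged 1.02%.

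A further source of *nrg1* in zebrafish was a cluster of 489 cells that no marker list named, with 281 *nrg1* UMIs or 65.7 CPM. Its leading genes were *scn1ba*, *frzb*, *bmp3*, *ptn* and *chl1a*. Its markers were mixed. Of 3 endothelial markers measured in it, *cdh5* was at 1084 CPM, *fli1a* at 113 CPM and *kdrl* at 115 CPM, against 1168, 205 and 329 CPM in endothelial cells. Of 6 epicardial markers, the keratin gene *krt15* was at 2534 CPM against 1864 CPM in epicardial cells, while *tcf21*, *tbx18*, *wt1a*, *wt1b* and *hapln1a* lay between 0 and 7.02 CPM. The glial marker *sox10* was at 20.1 CPM. In the uninjured samples with at least 10 such cells *nrg1* measured 25.5 to 117 CPM. At 3 dpi it was 78.0 and 24.0 CPM, and at 14 dpi it ran between 0 and 117 CPM, so that time points overlapped here too.

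*nrg2a*, another neuregulin, was highest in endothelial cells among the named cell types of both species. In zebrafish it averaged 2.25 ± 1.65 CPM in cardiomyocytes, 89.2 ± 27.1 CPM in the endothelium, 36.2 ± 21.2 CPM in the epicardium and 9.06 ± 7.47 CPM in leukocytes (SD, n = 13 each). In medaka it averaged 1.40 ± 1.17 CPM in cardiomyocytes, 73.2 ± 22.8 CPM in endothelial cells and 6.34 ± 4.63 CPM in leukocytes (SD, n = 9 each), and 6.91 ± 7.75 CPM in epicardial cells (SD, n = 6). Endothelial cells held 81.5% of 9156 *nrg2a* UMIs in zebrafish and 91.8% of 3553 in medaka. Zebrafish endothelial cells exceeded epicardial cells in 13 of 13 samples, by 1.46 ± 0.20 on the log2(CPM + 1) scale, and exceeded leukocytes in 13 of 13 samples, by 3.54 ± 0.42 (SE, exact sign-flip test, adjusted p of 0.00116 and 0.00131). Medaka endothelial cells exceeded leukocytes in 9 of 9 samples, by 3.52 ± 0.26 (SE, exact sign-flip test, adjusted p of 0.0115). Erythroid cells with an *nrg2a* UMI made up 0.574% in zebrafish and 0.00924% in medaka, at a median of 704 and 1379 UMIs per cell.

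At 3 dpi. *nrg2a* fell in the zebrafish epicardium. Its CPM there was 29.5, 35.2, 53.2 and 37.7 in uninjured samples, 13.5, 11.4 and 11.04 at 3 dpi, and 15.3, 40.9 and 78.8 as the lowest, median and highest of the 6 samples at 14 dpi. Samples at 3 dpi lay below all uninjured samples and below all samples at 14 dpi. Against uninjured samples this was a log2 fold change of -1.89 ± 0.43 at 3 dpi and 0.26 ± 0.35 at 14 dpi (SE, edgeR, adjusted p of 0.00508 and 0.763). It was -2.01 at 3 dpi with uninjured replicates 3 and 4 only (adjusted p of 0.00543). The part of a change in which epicardial cells were present was not tested. Markers of other cell types in these epicardial cells were lower at the same time, with the endothelial list at 20.0 to 48.8 CPM at 3 dpi against 39.3 to 134 CPM in uninjured samples and the cardiomyocyte list at 91.2 to 285 CPM against 532 to 2020 CPM, and their part in the fall of *nrg2a* was not tested. In the endothelium, the leading source, *nrg2a* measured 76.0, 77.2 and 67.9 CPM in zebrafish samples at 3 dpi, against 80.0, 119, 144 and 97.5 CPM in uninjured samples, all of which were higher. That difference did not pass, at a log2 fold change of -0.63 ± 0.29 (SE, edgeR, adjusted p of 0.205). In medaka endothelial cells it measured 53.0, 66.3, 107 and 44.0 CPM in uninjured samples, 74.0, 110 and 76.6 CPM at 3 dpi, and 54.2 and 73.6 CPM at 14 dpi, with overlapping ranges. The log2 fold change there at 3 dpi was 0.36 ± 0.29 (SE, edgeR, adjusted p of 0.370).

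Among all fits of a member in a cell type, few passed. In zebrafish 19 fits of 6 members could be made at 3 dpi, of which 3 passed, all among the 6 in epicardial cells, where 30.1% of all genes tested passed. DESeq2 called 4 of the 19, and 6 had an unadjusted p under 0.05. None of the members passed at 3 dpi in cardiomyocytes (2.14% of all genes), endothelial cells (6.67%), leukocytes (6.66%) or thrombocytes (0.935%). In medaka 4 of 13 fits of 5 members passed at 3 dpi, and DESeq2 called 4. They were *hbegfa* among 4 fits in endothelial cells (32.9% of all genes), *erbb2* and *hbegfa* among 3 in leukocytes (28.6%) and *hbegfa*, the only fit, in thrombocytes (29.2%), with none of 5 in cardiomyocytes (3.55%). With so few fits in a cell type, these shares do not set the members apart from all genes. Adjusted p-values of the fits that did not pass at 3 dpi ran from 0.0690 to 0.954 in zebrafish and from 0.106 to 0.934 in medaka. At 14 dpi edgeR called 0 of 19 zebrafish fits, with 3 at an unadjusted p under 0.05 and 1 called by DESeq2, and 0 of 16 medaka fits, with 2 at an unadjusted p under 0.05 and 0 called by DESeq2. Of all genes tested at 14 dpi, 1.36% passed in zebrafish cardiomyocytes, 2.56% in the endothelium, 1.59% in the epicardium, 0.647% in leukocytes and 3.98% in thrombocytes. In medaka it was 0.229% in cardiomyocytes, 3.24% in the endothelium, 1.15% in the epicardium, 0.823% in leukocytes and 8.93% in thrombocytes. Fits used TMM factors, which set changes against the bulk of genes. With library totals as the only scaling the median change of all genes at 3 dpi shifted by 0.63 on the log2 scale in medaka leukocytes, 0.53 in zebrafish cardiomyocytes, 0.21 in medaka cardiomyocytes, 0.20 in zebrafish epicardial cells, -0.18 in medaka thrombocytes and -0.28 in zebrafish thrombocytes, and the share of called genes that were higher was 83.1% against 49.4% with TMM in medaka leukocytes and 95.5% against 42.6% in zebrafish cardiomyocytes. All 7 calls of members at 3 dpi kept their direction and passed under both, and *nrg2a* in medaka leukocytes passed with library totals alone (1.71, adjusted p of 0.0141). The members *erbb3a*, *erbb3b* and *erbb4a* in zebrafish and *nrg1*, *erbb3a* and *erbb3b* in medaka were too low for any such fit.

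**Figure D3:**
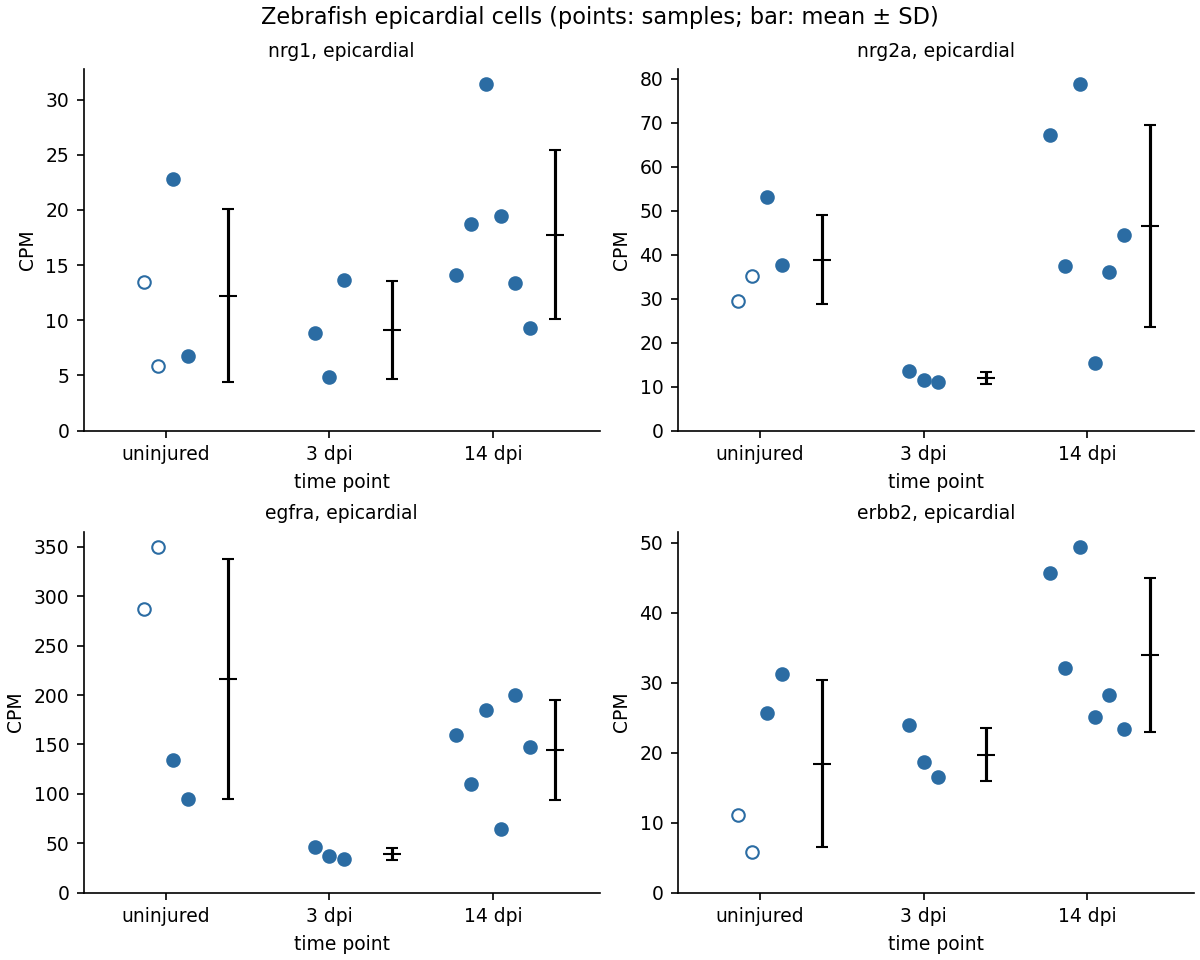
CPM of *nrg1*, *nrg2a*, *egfra* and *erbb2* in zebrafish epicardial cells by time point; points are samples, open points are uninjured replicates 1 and 2, and bars give the mean ± SD. *egfra* lies between 34.4 and 46.2 CPM at 3 dpi, below every uninjured sample, and *nrg2a* between 11.04 and 13.5 CPM.

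*hbegfa*, a ligand of Egfr and Erbb4, was broadly expressed, with the endothelium leading in zebrafish and thrombocytes and leukocytes leading in medaka. Zebrafish thrombocytes held the other copy, *hbegfb*, at 2896 CPM, and that symbol is not listed in medaka. Levels of *hbegfa* alone therefore do not compare the species in their sources of Hb-egf. Zebrafish levels were 50.2 ± 17.1 CPM in cardiomyocytes, 146 ± 101 CPM in the endothelium, 63.9 ± 29.2 CPM in the epicardium, 57.5 ± 38.4 CPM in leukocytes and 42.1 ± 28.4 CPM in thrombocytes (SD, n = 13 each). Medaka levels were 66.8 ± 14.6 CPM in cardiomyocytes, 123 ± 116 CPM in endothelial cells, 488 ± 369 CPM in leukocytes and 2848 ± 1408 CPM in thrombocytes (SD, n = 9 each), and 55.5 ± 36.5 CPM in epicardial cells (SD, n = 6). Medaka endothelial cells lay below leukocytes in 9 of 9 samples, by -1.95 ± 0.30 on the log2(CPM + 1) scale, and leukocytes below thrombocytes in 9 of 9, by -2.84 ± 0.64 (SE, exact sign-flip test, adjusted p of 0.0115 and 0.0198). In zebrafish endothelial cells exceeded epicardial cells in 10 of 13 samples, by 1.00 ± 0.35 (SE, exact sign-flip test, adjusted p of 0.0220). Without uninjured replicates 1 and 2 this difference was 0.82 and no longer passed (adjusted p of 0.0745). Because thrombocytes are few, leukocytes still held 52.4% of the 26219 medaka UMIs and thrombocytes 11.9%, while zebrafish endothelial cells held 57.9% of 21920. Erythroid cells measured 7.47 CPM in zebrafish and 1.72 CPM in medaka, pooled over samples, with a UMI in 1.05% and 0.369% of cells.

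In medaka *hbegfa* rose at 3 dpi in endothelial cells and leukocytes and fell in thrombocytes. Endothelial cells measured 46.1, 49.0, 38.6 and 52.4 CPM in uninjured samples, 189, 399 and 160 CPM at 3 dpi, and 102 and 71.6 CPM at 14 dpi. Every injured sample lay above every uninjured sample. Relative to uninjured samples it changed by a log2 fold of 2.39 ± 0.31 at 3 dpi and 1.03 ± 0.34 at 14 dpi (SE, edgeR, adjusted p of 0.000757 and 0.138). The share of endothelial cells with a UMI was 54.4% at 3 dpi against 10.1% in uninjured samples, and 17.4% against 3.26% after thinning to 1000 UMIs (exact permutation test, p = 0.0571, the smallest this design allows). In these endothelial cells the summed leukocyte markers, of 9 of which 7 or 8 had UMIs at 3 dpi, were at 18.2 to 33.3 CPM at 3 dpi against 29.1 to 66.5 CPM in uninjured samples, and the thrombocyte markers at 3.05 to 7.69 CPM against 2.70 to 9.03 CPM. The epicardial markers summed to 27.1 to 396 CPM at 3 dpi and 215 to 445 CPM at 14 dpi, against 79.2 to 112 CPM in uninjured samples. The part of such markers in the rise of *hbegfa* was not tested. The study also reported a larger share of fibroblast-like cells among endothelial cells early after injury in both species. The part of such a change in make-up in endothelial values of either species, *hbegfa* included, was not tested. The rise is therefore one of endothelial cells as a whole.

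Medaka thrombocytes held *hbegfa* at 3970, 4710, 4931 and 3178 CPM in uninjured samples, at 1301, 2331 and 1370 CPM at 3 dpi, and at 1662 and 2184 CPM at 14 dpi. All injured samples were below all uninjured samples. At 3 dpi the log2 fold change was -1.14 ± 0.27 (SE, edgeR, adjusted p of 0.00750). The thrombocytes' own marker list moved the same way, with a summed level of 2803 to 3296 CPM at 3 dpi against 4348 to 5495 CPM in uninjured samples, and its part in the result was not tested. With at most 15% mitochondrial UMIs per cell the change was -1.04 and did not pass (adjusted p of 0.114).

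Medaka leukocytes measured *hbegfa* at 69.9, 93.9, 388 and 442 CPM in uninjured samples, where replicates 1 and 2 lay well below 3 and 4, at 830, 1215 and 710 CPM at 3 dpi, and at 316 and 332 CPM at 14 dpi. Samples at 3 dpi lay above all others. Compared with uninjured samples the log2 fold change was 1.41 ± 0.46 at 3 dpi and 0.50 ± 0.51 at 14 dpi (SE, edgeR, adjusted p of 0.0416 and 0.749). This call rests on single samples. It was lost without uninjured replicate 1 or 2, without any of the 3 samples at 3 dpi, and without either sample at 14 dpi, at log2 fold changes between 1.14 and 1.72. The share of leukocytes with a UMI was 76.3% at 3 dpi against 18.6% in uninjured samples, and 45.9% against 10.6% after thinning to 1000 UMIs (exact permutation test, p = 0.0571 for both).

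The make-up of the medaka leukocytes moved with these values. A cluster led by *apoeb*, *mmp13b*, *fn1*, *mmp14a* and *mrc1b* made up 55.0% of leukocytes at 3 dpi and 18.6% at 14 dpi, and held *hbegfa* at 1044 and 837 CPM. Another, led by genes of granulocytes and cytotoxic cells such as *mpx*, reached 4064, 2251 and 1761 CPM in uninjured, 3 dpi and 14 dpi samples and made up 4.09%, 19.1% and 0.456% of leukocytes. A cycling cluster held it at 135, 408 and 191 CPM at these times. Changes of *hbegfa* in leukocytes as a whole therefore cannot be told apart from a change in which leukocytes were present.

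In zebrafish *hbegfa* was not shown to change when all samples were fitted, and in endothelial cells its direction depended on the uninjured samples used. Endothelial cells measured 382, 261, 21.4 and 37.3 CPM in uninjured samples, 83.3, 125 and 153 CPM at 3 dpi, and 95.05, 104 and 249 CPM as the lowest, median and highest at 14 dpi. Injured samples lay between the 2 uninjured pairs. In the fit of all samples the log2 fold change was -0.89 ± 0.87 at 3 dpi and -0.49 ± 0.71 at 14 dpi (SE, edgeR, adjusted p of 0.585 and 0.748). Uninjured replicates 3 and 4 were counted with the program version and gene list of the injured samples, but held far fewer erythroid cells than these. With these uninjured replicates only, endothelial *hbegfa* rose by 2.24 at 3 dpi and 2.64 at 14 dpi and passed (edgeR, adjusted p of 0.0124 and 0.0103).

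The species were compared directly by the interaction term, the zebrafish change minus the medaka change at 3 dpi, adjusted over all shared symbols. No member passed with edgeR, and 2 of 13 terms had an unadjusted p under 0.05, both for *hbegfa*. For *hbegfa* the term was -3.20 ± 1.16 in endothelial cells (unadjusted p of 0.0156, adjusted p of 0.130), -2.25 ± 0.82 in leukocytes (unadjusted p of 0.0139, adjusted p of 0.159) and 0.37 ± 0.78 in thrombocytes (adjusted p of 0.935). The thrombocyte term sets a zebrafish gene with a mean of 42.1 CPM over all samples against a medaka gene with 2848 CPM. For *erbb2* in leukocytes the interaction term was -1.79 ± 0.94 (adjusted p of 0.332). The endothelial term for *hbegfa* passed with DESeq2 (-3.21, adjusted p of 0.0430), but rested on zebrafish uninjured replicates 1 and 2. It came to -0.11 with zebrafish uninjured replicates 3 and 4 only (adjusted p of 0.943), where the leukocyte term was -0.71 (adjusted p of 0.663). Of all shared genes tested, 0.252% passed in cardiomyocytes, 5.07% in endothelial cells, 1.84% in leukocytes and 0.378% in thrombocytes. The epicardial term could not be fitted, since no medaka sample at 3 dpi held enough cells named epicardial here to be tested.

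**Figure D4:**
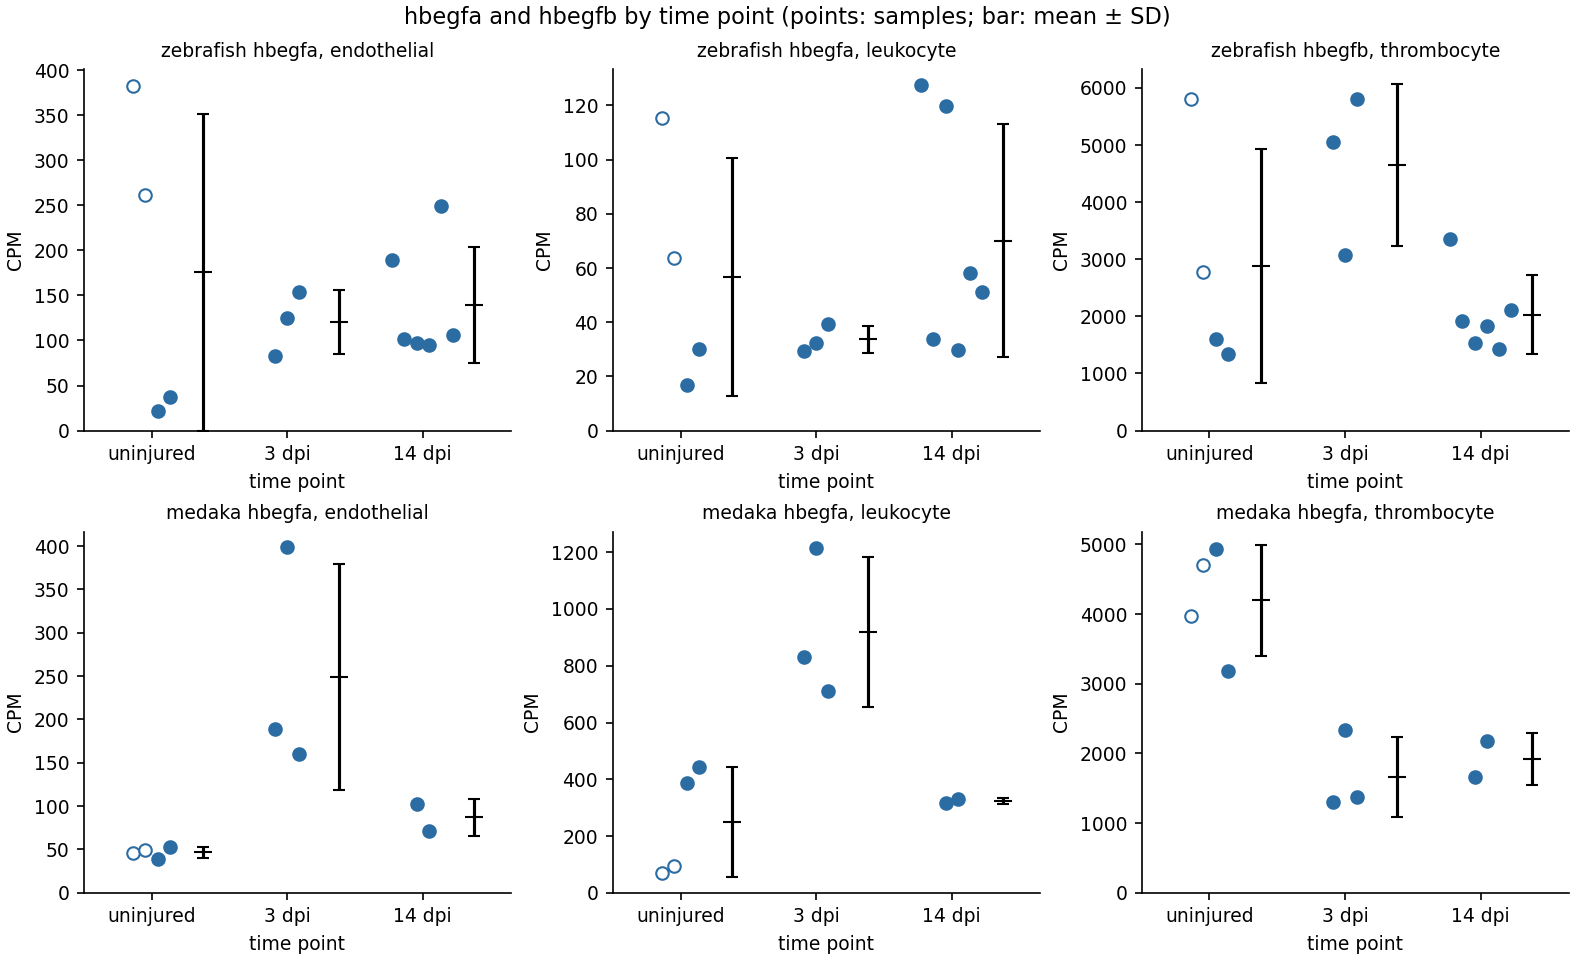
CPM by time point of *hbegfa* in endothelial cells and leukocytes of zebrafish (top) and in endothelial cells, leukocytes and thrombocytes of medaka (bottom), and of *hbegfb* in zebrafish thrombocytes (top right); points are samples, open points are uninjured replicates 1 and 2 of each species, and bars give the mean ± SD, ending at 0 where they would pass it. Medaka endothelial cells lie between 160 and 399 CPM at 3 dpi, and zebrafish thrombocytes hold *hbegfb* in every sample.

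*hbegfb*, the other copy of this ligand gene in zebrafish, marked thrombocytes, which held 89.3% of its 5755 UMIs. It averaged 1.02 ± 1.43 CPM in cardiomyocytes, 2.76 ± 3.01 CPM in the endothelium, 2.96 ± 3.40 CPM in the epicardium, 9.65 ± 13.8 CPM in leukocytes and 2896 ± 1651 CPM in thrombocytes (SD, n = 13 each). The other 4 types lay below thrombocytes in 13 of 13 samples, by -10.59 to -8.76 on the log2(CPM + 1) scale (exact sign-flip test, adjusted p from 0.00128 to 0.00255). In thrombocytes it measured 5805, 2779, 1601 and 1343 CPM in uninjured samples, 5060, 3067 and 5813 CPM at 3 dpi, and 1431, 1873 and 3357 CPM as the lowest, median and highest at 14 dpi. All samples at 3 dpi lay above uninjured replicates 2, 3 and 4, while uninjured replicate 1 lay among them. With all samples the log2 fold change was 0.99 ± 0.42 at 3 dpi and -0.16 ± 0.36 at 14 dpi (SE, edgeR, adjusted p of 0.267 and 0.869). Of the named zebrafish cells, thrombocytes made up 0.895% to 1.86% in uninjured samples, 3.31% to 4.54% at 3 dpi and 2.66% to 13.95% at 14 dpi.

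In zebrafish epicardial cells *hbegfb* rose at 3 dpi at a low level. It had 9, 52 and 22 UMIs at 3 dpi, against 0, 0, 1 and 1 UMIs in uninjured samples, or 5.09 ± 2.48 CPM at 3 dpi (SD, n = 3) against 0.326 ± 0.448 CPM in uninjured samples (SD, n = 4). As a log2 fold change this came to 3.499 ± 1.102 (SE, edgeR, adjusted p of 0.0267), which depends on the prior count of the fit. The ratio of the pooled levels, from 83 UMIs at 3 dpi and 2 in uninjured samples, was 15.4, with an exact counting interval of 4.13 to 129. It was lost without uninjured replicate 4, without replicate 2 at 3 dpi and without replicate 3 at 3 dpi, at 3.12 to 4.09 over the samples left out, and also with uninjured replicates 3 and 4 only (3.05, adjusted p of 0.0731). Markers of thrombocytes in these cells summed to 28.8 to 62.2 CPM at 3 dpi against 29.2 to 141 CPM in uninjured samples, and those of leukocytes to 2.48 to 5.98 CPM against 2.46 to 11.7 CPM. Epicardial *hbegfb* also averaged higher at 14 dpi, at 3.66 ± 4.03 CPM (SD), a log2 fold change of 3.39 ± 1.06. Endothelial cells averaged 4.36 ± 3.42 CPM at 3 dpi against 0.484 ± 0.267 CPM in uninjured samples (SD). The log2 fold change there was 3.04 ± 0.93 at 3 dpi and 2.79 ± 0.86 at 14 dpi. None of these changes passed (SE, edgeR, adjusted p of 0.114, 0.0690 and 0.101). The part of thrombocytes in the values of other cells was not tested.

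*erbb2*, the co-receptor, was found in cardiomyocytes, endothelial cells and epicardial cells of both species. Zebrafish averaged 44.6 ± 20.2 CPM in cardiomyocytes, 36.8 ± 14.0 CPM in the endothelium, 25.9 ± 12.2 CPM in the epicardium and 7.47 ± 7.77 CPM in leukocytes (SD, n = 13 each). Medaka averaged 42.5 ± 18.8 CPM in cardiomyocytes, 14.9 ± 4.20 CPM in endothelial cells and 9.87 ± 8.42 CPM in leukocytes (SD, n = 9 each), and 21.5 ± 12.1 CPM in epicardial cells (SD, n = 6). Zebrafish cardiomyocytes and endothelial cells did not differ beyond their spread, at 0.10 ± 0.22 on the log2(CPM + 1) scale (exact sign-flip test, p = 0.640), although cardiomyocytes were higher in 10 of 13 samples and the difference passed at 0.39 with uninjured replicates 3 and 4 only (adjusted p of 0.0111). Zebrafish endothelial cells exceeded epicardial cells in 12 of 13 samples, by 0.52 ± 0.10, and epicardial cells exceeded leukocytes in 12 of 13, by 1.94 ± 0.34 (SE, exact sign-flip test, adjusted p of 0.00188 and 0.00289). In medaka cardiomyocytes exceeded endothelial cells in 9 of 9 samples, by 1.39 ± 0.16, and leukocytes in 9 of 9, by 2.33 ± 0.42 (SE, exact sign-flip test, adjusted p of 0.00645 and 0.00725). Erythroid cells with an *erbb2* UMI made up 0.344% in zebrafish and 0.0185% in medaka.

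Cardiomyocyte *erbb2* was not shown to change with injury in either species. In zebrafish it measured 3.70, 2.96, 59.96 and 55.0 CPM in uninjured samples, 59.8, 56.0 and 53.6 CPM at 3 dpi, and 32.3, 46.3 and 62.6 CPM as the lowest, median and highest at 14 dpi. Apart from uninjured replicates 1 and 2, the time points overlapped. The fitted log2 fold change was 0.57 ± 0.71 at 3 dpi and 0.57 ± 0.61 at 14 dpi (SE, edgeR, adjusted p of 0.728 and 0.667), and with uninjured replicates 3 and 4 only it was -0.31 at both times (adjusted p of 0.415 and 0.371). In medaka it measured 26.2, 26.2, 67.7 and 77.5 CPM in uninjured samples, 42.6, 24.3 and 45.9 CPM at 3 dpi, and 34.3 and 38.2 CPM at 14 dpi. At 3 dpi the fitted log2 fold change was -0.48 ± 0.31 (SE, edgeR, adjusted p of 0.420).

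In medaka leukocytes *erbb2* rose at 3 dpi. It measured 1.22, 1.86, 5.04 and 6.60 CPM in uninjured samples, 21.1, 18.4 and 22.7 CPM at 3 dpi, and 6.24 and 5.67 CPM at 14 dpi. Samples at 3 dpi lay above all others. Its log2 fold change was 1.97 ± 0.36 at 3 dpi and 0.76 ± 0.41 at 14 dpi (SE, edgeR, adjusted p of 0.00345 and 0.486). At 3 dpi it was 2.651 with medaka uninjured replicates 1 and 2 only and 1.52 with 3 and 4 only, and passed with either pair (adjusted p of 0.000899 and 0.00825). Leukocytes with a UMI made up 10.3% at 3 dpi against 1.06% in uninjured samples, and 1.80% against 0.239% after thinning to 1000 UMIs (exact permutation test, p = 0.0571 for both, adjusted to 0.389 for the unthinned share). The cluster led by *apoeb* and *mmp13b* held *erbb2* at 27.6 CPM at 3 dpi and 14.5 CPM at 14 dpi, and the other leukocyte clusters with at least 10 cells at 3 dpi ran between 0 and 18.1 CPM. This cluster had 9 cells in uninjured samples, so that the rise of *erbb2* in leukocytes cannot be told apart from a change in which leukocytes were present. Whether these cells arrived or were resident cells that changed was not tested. Markers of other cell types moved with this result. Endothelial markers in the leukocytes summed to 446 to 545 CPM at 3 dpi against 61.0 to 219 CPM in uninjured samples, and epicardial markers to 155 to 249 CPM against 4.27 to 74.9 CPM. All 9 endothelial markers had UMIs at 3 dpi, with *cdh5* at 8.30 to 8.55 CPM against 2.12 to 4.24 CPM in uninjured samples, while of 7 epicardial markers 5 or 6 did. The epicardial markers went both ways, with mean levels of 159 CPM at 3 dpi against 21.3 CPM in uninjured samples for *dcn* and 24.1 against 1.28 CPM for *wt1*, but 1.12 against 2.57 CPM for *tcf21* and 1.29 against 4.01 CPM for *pdgfra*, and *hapln1a* was at 0 in both. Their part in the rise was not tested.

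**Figure D5:**
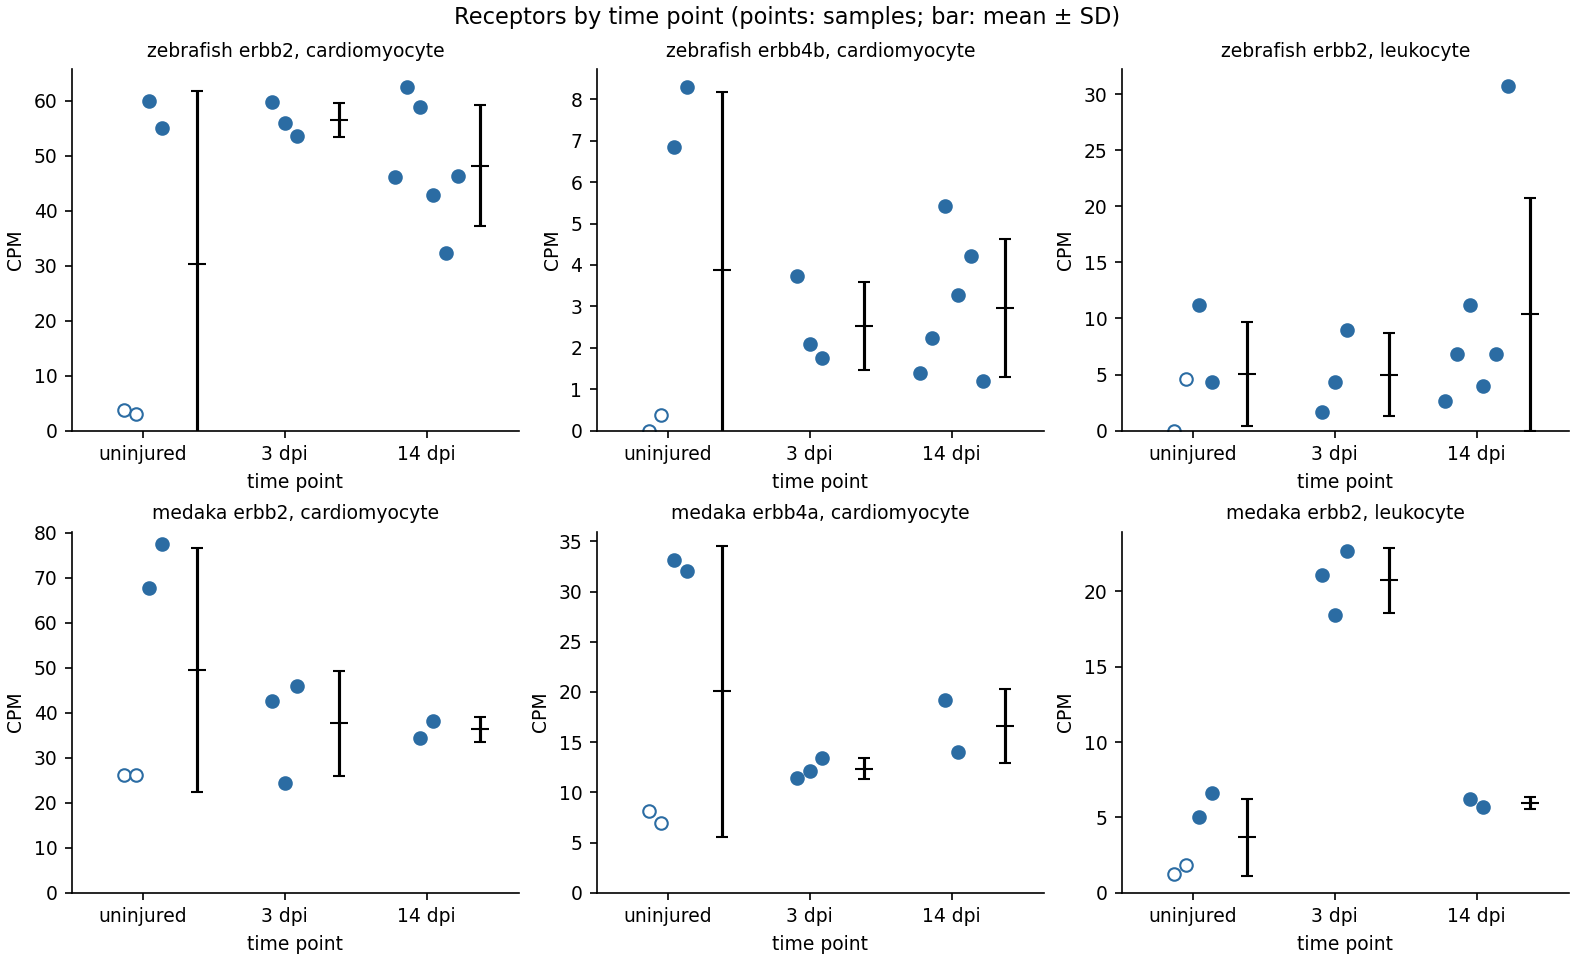
CPM of *erbb2* in cardiomyocytes and leukocytes and of *erbb4b* (zebrafish, top) or *erbb4a* (medaka, bottom) in cardiomyocytes, by time point; points are samples, open points are uninjured replicates 1 and 2 of each species, and bars give the mean ± SD, ending at 0 where they would pass it. Medaka leukocytes at 3 dpi lie between 18.4 and 22.7 CPM, and zebrafish uninjured replicates 1 and 2 lie at 3.70 and 2.96 CPM for *erbb2* in cardiomyocytes.

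The Erbb4 receptor, which binds neuregulins and Hb-egf, was seen as *erbb4a* in medaka and mainly as *erbb4b* in zebrafish. Medaka cardiomyocytes held 99.1% of 1117 *erbb4a* UMIs, at 16.7 ± 9.66 CPM against 0.0242 ± 0.0726 CPM in endothelial cells (SD, n = 9 each). Cardiomyocytes exceeded endothelial cells in 9 of 9 samples, by 3.94 ± 0.25 on the log2(CPM + 1) scale (SE, exact sign-flip test, adjusted p of 0.00645). Its level was 8.18, 6.90, 33.1 and 32.0 CPM in uninjured samples, 11.4, 12.1 and 13.5 CPM at 3 dpi, and 19.2 and 14.0 CPM at 14 dpi. Uninjured replicates 1 and 2 lay below all injured samples and replicates 3 and 4 above them. For 3 dpi the log2 fold change was -0.77 ± 0.44 (SE, edgeR, adjusted p of 0.356), and it was 0.13 with uninjured replicates 1 and 2 only (adjusted p of 0.822) but -1.33 with 3 and 4 only, which passed (adjusted p of 0.0203). In zebrafish *erbb4a* had 25 UMIs, 22 of them in cardiomyocytes, where it averaged 0.133 ± 0.206 CPM (SD, n = 13). *erbb4b*, the paralogue, which is not a member, had 480 zebrafish UMIs, 87.1% of them in cardiomyocytes. It measured 0, 0.370, 6.85 and 8.29 CPM there in uninjured samples, 3.74, 2.09 and 1.76 CPM at 3 dpi, and 1.19, 2.77 and 5.43 CPM as the lowest, median and highest at 14 dpi. All injured samples lay above uninjured replicates 1 and 2 and below 3 and 4. With all samples the log2 fold change was -0.97 ± 0.93 at 3 dpi and -0.44 ± 0.77 at 14 dpi (SE, edgeR, adjusted p of 0.630 and 0.812). In medaka *erbb4b* had 40 UMIs, 39 of them in leukocytes and 0 in cardiomyocytes. Genes of these close pairs can share reads, so that the split between copies is uncertain.

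The Erbb3 receptors were at or near 0 in the 4 main cell types of both species. *erbb3a* had 311 UMIs in zebrafish, of which 295 lay in cells without a name, and 15 in medaka. A cluster of 298 zebrafish cells, led by *angptl7*, *rspo1*, *ptx3a*, *cyp26b1* and *hhip*, held 248 of these UMIs at 70.1 CPM, while zebrafish cardiomyocytes averaged 0.0559 ± 0.160 CPM (SD, n = 13). *erbb3b* had 41 UMIs in zebrafish. In medaka 59 of its 86 UMIs lay in thrombocytes, at 39.8 ± 29.3 CPM against 0.0057 ± 0.0170 CPM in cardiomyocytes (SD, n = 9 each), and the 3 other types with 9 samples lay below thrombocytes by -4.58 to -4.04 on the log2(CPM + 1) scale (exact sign-flip test, adjusted p from 0.0250 to 0.0292). Thrombocyte values were 41.1, 0, 86.9 and 55.9 CPM in uninjured samples, 6.44, 57.0 and 34.8 CPM at 3 dpi, and 64.4 and 11.9 CPM at 14 dpi, each from at most 18 UMIs.

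*egfra*, the EGF receptor, was epicardial in zebrafish and was found in epicardial cells and cardiomyocytes in medaka. Zebrafish averaged 1.97 ± 1.31 CPM in cardiomyocytes, 17.3 ± 5.33 CPM in the endothelium, 142 ± 96.1 CPM in the epicardium and 10.3 ± 15.2 CPM in leukocytes (SD, n = 13 each). Medaka averaged 27.7 ± 12.3 CPM in cardiomyocytes, 5.81 ± 1.57 CPM in endothelial cells and 1.56 ± 1.37 CPM in leukocytes (SD, n = 9 each), and 56.4 ± 25.0 CPM in epicardial cells (SD, n = 6). In zebrafish cardiomyocytes lay below epicardial cells in 13 of 13 samples, by -5.37 ± 0.31, and endothelial cells did so in 13 of 13, by -2.70 ± 0.33, on the log2(CPM + 1) scale (SE, exact sign-flip test, adjusted p of 0.000784 and 0.00116). In medaka cardiomyocytes exceeded endothelial cells in 9 of 9 samples, by 2.00 ± 0.16 (SE, exact sign-flip test, adjusted p of 0.00645). Of 5510 zebrafish UMIs 61.2% lay in epicardial cells, and of 2236 medaka UMIs 75.1% lay in cardiomyocytes.

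Zebrafish epicardial *egfra* fell at 3 dpi. It measured 287, 350, 135 and 94.9 CPM in uninjured samples, 46.2, 37.0 and 34.4 CPM at 3 dpi, and 64.4, 153 and 200 CPM as the lowest, median and highest at 14 dpi. Samples at 3 dpi lay below all samples of the other times. The log2 fold change was -2.71 ± 0.53 at 3 dpi and -0.58 ± 0.40 at 14 dpi (SE, edgeR, adjusted p of 0.00213 and 0.487). With uninjured replicates 3 and 4 only, the change at 3 dpi was -1.64 and still passed (adjusted p of 0.00894). The study reported a larger share of fibroblast-like cells among epicardial cells after injury. The part of such a change in make-up in the epicardial values of *egfra*, *nrg2a* and *hbegfb* was not tested. The share of epicardial cells with a UMI was 56.6% at 3 dpi against 55.1% in uninjured samples at their unequal depths, and 4.63% against 20.5% after thinning to 1000 UMIs (exact permutation test, p = 0.0571, the smallest this design allows). Erythroid cells with an *egfra* UMI made up 0.0834%. In medaka epicardial cells *egfra* measured 37.4 and 32.2 CPM at 14 dpi, against 62.9, 59.96, 44.7 and 101 CPM in uninjured samples. In medaka cardiomyocytes it measured 21.6, 12.5, 37.9 and 50.9 CPM in uninjured samples, 36.0, 17.5 and 19.0 CPM at 3 dpi, and 31.7 and 22.2 CPM at 14 dpi.

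Genes linked to signalling by such receptors were followed in lists of ERK targets, transducers, proteases and inhibitors. Whether their changes came through Erbb or Egfr receptors was not tested. The lists were chosen with earlier results of these data known, so that the shares of all genes are no independent reference for their counts. Of 16 listed ERK targets, all 16 were tested in zebrafish epicardial cells at 3 dpi, and 10 fell and 0 rose, where 14.6% of all genes tested fell. Their median log2 fold change was -1.67, against -0.04 over all genes. Among them were *etv4* (-2.04 ± 0.31, adjusted p of 0.000569) and *etv5b* (-1.97 ± 0.40, adjusted p of 0.00277), transcription factors induced by ERK, and *spry2* (-2.16 ± 0.42, adjusted p of 0.00203) and *spry4* (-2.36 ± 0.52, adjusted p of 0.00443), which dampen receptor signalling (SE, edgeR). With uninjured replicates 3 and 4 only, 7 fell and 2 rose, namely *dusp5* and *myca*, at a median of -0.71. In medaka endothelial cells 5 of 11 ERK targets fell at 3 dpi, where 15.7% of all genes fell, at a median of -1.23 against -0.08 over all genes. They included *fosl1a* (-3.17 ± 0.39), *egr1* (-2.17 ± 0.31), *dusp5* (-1.50 ± 0.21) and *etv5a* (-1.23 ± 0.22), with adjusted p from 0.000602 to 0.00307 (SE, edgeR). In these medaka cells the ligand *hbegfa* rose at the same time. Elsewhere at 3 dpi 1 of 16 ERK targets passed in zebrafish endothelial cells (6.67% of all genes) and 2 of 8 in medaka cardiomyocytes (3.55%), all lower. In medaka thrombocytes 1 of 3 passed, also lower (29.2% of all genes). In medaka leukocytes *etv4* rose and *spry2* fell among 10 (28.6% of all genes). There *spry2* was low, at 0.284 to 0.450 CPM at 3 dpi against 1.41 to 3.48 CPM in uninjured samples. Except in medaka cardiomyocytes, the counts in these other cell types lie near or below the share of all genes. None passed in zebrafish cardiomyocytes, leukocytes or thrombocytes (2.14%, 6.66% and 0.935% of all genes). At 14 dpi 4 of 16 ERK targets were lower in zebrafish epicardial cells, where 1.59% of all genes passed. There 15 of the 16 had a negative log2 fold change, and the median was -0.63. Also lower at 14 dpi were 3 of 16 in zebrafish endothelial cells (2.56% of all genes) and 2 of 15 in zebrafish cardiomyocytes (1.36%). In medaka endothelial cells 2 of 11 were lower (3.24% of all genes). Apart from ERK targets of zebrafish epicardial cells at 3 dpi, zebrafish counts for the lists are given only with all uninjured samples. Epicardial *spry4* measured 398 and 331 CPM in uninjured replicates 1 and 2 against 108 and 116 CPM in 3 and 4, and 40.8 to 107 CPM at 14 dpi. Epicardial *etv4* showed no such gap, at 64.4 and 40.2 CPM against 70.4 and 56.7 CPM.

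Of the 8 listed negative regulators, *cblb*, a ubiquitin ligase that marks active receptors for breakdown, fell at 3 dpi in zebrafish endothelial and epicardial cells and in medaka endothelial cells. *lrig1*, which lowers Erbb receptor levels, rose in zebrafish epicardial cells, and *errfi1a*, an inhibitor of the Egfr kinase, rose in medaka leukocytes. Of the negative regulators 6 were tested in zebrafish endothelial cells (6.67% of all genes passed) and 6 in zebrafish epicardial cells (30.1%). In medaka 5 were tested in endothelial cells (32.9%) and 4 in leukocytes (28.6%). With so few tested, these calls do not set the regulators apart from all genes. Zebrafish calls of regulators, transducers and proteases come from fits with all uninjured samples only. At 3 dpi the transducers passed in 3 cell types, at shares below that of all genes, though near it in medaka leukocytes. Of 26, 4 passed in zebrafish epicardial cells (30.1% of all genes), with *map2k1*, whose product activates ERK, higher and *akt3a*, *hrasb* and *pik3r1* lower. In medaka 2 of 19 passed in endothelial cells (*kras* and *pik3r1*, both lower, where 32.9% of all genes passed), and 5 of 19 passed in leukocytes (28.6% of all genes), where *pik3cb* was higher and *akt2*, *map2k1*, *pik3r1* and *ptpn11b* were lower. Of the proteases that can release the ligands, *bace1* rose in zebrafish epicardial cells among 5 tested (30.1% of all genes passed). Its level was low, at 4.07 ± 2.15 CPM at 3 dpi against 0.248 ± 0.496 CPM in uninjured samples (SD). In medaka leukocytes *bace2* rose and *adam10a* and *adam17b* fell in the fit among 6 tested (28.6% of all genes passed). Changes of listed genes in medaka leukocytes cannot be told apart from the change in which leukocytes were present. With library totals as the only scaling *adam10a*, *akt2* and *ptpn11b* in medaka leukocytes, *hrasb* in zebrafish epicardial cells and the ERK target *egr1* in medaka cardiomyocytes no longer passed, and the CPM of *adam10a* overlapped, at 12.6 to 21.4 CPM at 3 dpi against 12.3 to 25.4 CPM in uninjured samples. No other ligand of the family passed, with at most 2 of 9 high enough to test in a cell type. At 14 dpi 1 of 26 transducers was higher and 1 lower in zebrafish endothelial cells, where 2.56% of all genes passed. There 1 of 6 negative regulators was lower too. In the other cell types no transducer, negative regulator or protease passed at 14 dpi.

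As a description, genes whose log2(CPM + 1) was most like a member's over all sums of a sample and a main cell type were found by Pearson's r, over 52 sums in zebrafish and 33 in medaka that share libraries and depth. Nearest to zebrafish *nrg1* were *gas2a* (0.963), *thbs2a* (0.960) and *sema3c* (0.953), to *egfra* *fgfr4* (0.920), *col6a3* (0.912) and *htra1b* (0.909), and to *erbb2* *fermt2* (0.932), *apbb2b* (0.917) and *klf15* (0.898). Zebrafish *nrg2a* was nearest to *tmem176l.1* (0.935). For zebrafish *hbegfa* and *hbegfb* the highest were lower, with *pmch* (0.711) and *tgfbi* (0.676). In medaka the nearest were *ABCC4* (0.984) among named genes for *erbb4a*, *asap2a* (0.952) and *snx8a* (0.938) for *nrg2a*, *trim3b* (0.948), *cdon* (0.946) and *slc2a12* (0.946) for *egfra*, *hlfa* (0.918), *ldb1b* (0.881) and *wfs1b* (0.874) for *erbb2*, and *kdm2aa* (0.918) and *zgc:101744* (0.915) for *hbegfa*.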

How the data were processed

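Ventricles were dissociated and sequenced on the 10x Genomics Chromium system. Deposited are raw UMI counts for each gene and barcode, which the authors made with Cell Ranger, version 3.1.0 for 2 uninjured zebrafish samples and 5.0.0 for the other 11 zebrafish and all 9 medaka samples per the file headers, and did not normalize. Barcodes with at least 200 genes and at most 40% mitochondrial UMIs were kept, and mitochondrial genes were then left out. Cells were clustered per species (scanpy 1.11.5, leidenalg 0.10.2) on 2000 variable genes without the members and pathway genes and named from marker lists, so that cell types are rebuilt ones and may differ from the study's. Scrublet marked 0% to 1.74% of cells per library, and these were kept and removed in an alternative. Sums of UMI counts over the cells of a type, for samples with at least 10 such cells, were tested with edgeR 4.0.16 (robust quasi-likelihood, TMM, filter on low counts) over all genes, with Benjamini-Hochberg adjustment at 0.05. DESeq2 1.42.0 was an alternative. Paired tests between cell types used genes of at least 1 CPM, with CPM over the symbols listed in every matrix of the species, and log2 differences understate the change of low genes. Shares of cells were compared by exact permutation over samples. A thinned share takes only cells with at least as many UMIs as the depth of thinning, and shallower cells were left out of it. Tests are two-sided and were checked on simulated data. Named were all members, at most 4 genes past the threshold per list, species and cell type with the smallest p (others that passed are named where few), and the 3 most alike genes of each member of at least 5 CPM (identifiers without a name left out). Members and lists were chosen with earlier results of these data known. The other tools were R 4.3.3, Python 3.11.15, scipy 1.17.1 and matplotlib 3.10.9. No sequence of a member was used here.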

Additional observations from a re-analysis of the deposited data

Results flagged for a closer look

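In groups of 4 to 10 samples, 5 of 53 groups of member values held a sample far from the others. The rule marks about 1 in 20 groups of normally spread values. Sparse counts are not spread so, and no excess can be read from this number. *hbegfb* in zebrafish thrombocytes was at 3357 CPM in replicate 1 at 14 dpi, against 1431 to 2109 CPM in the other samples of that time. *egfra* in zebrafish leukocytes was at 53.0 CPM in replicate 5 at 14 dpi, against 1.98 to 20.5 CPM in the others. *erbb2* in zebrafish leukocytes was at 30.7 CPM in replicate 6 at 14 dpi, from 3 UMIs in 21 cells, against 2.64 to 11.2 CPM. *nrg2a* in zebrafish thrombocytes was at 69.5 CPM in replicate 3 at 14 dpi, from 9 UMIs, against 0 to 24.5 CPM. *erbb2* in zebrafish thrombocytes was at 28.0 CPM in uninjured replicate 1, from 1 UMI, against 0 in the other uninjured samples.

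Clusters without a name, which enter no comparison, held members above every named main cell type of zebrafish, where the highest pooled levels were 13.0 CPM for *nrg1* and 0.191 CPM for *erbb3a*. *nrg1* was at 65.7 CPM in the cluster led by *scn1ba* and *frzb*, and *erbb3a* at 70.1 CPM in the cluster led by *angptl7* and *rspo1*. A cluster of 64 cells, all from replicate 5 at 14 dpi and led by keratin genes such as *krt5*, held *nrg1* at 56.4 CPM and *erbb3a* at 58.2 CPM, so that its values rest on 1 library.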

How the results depend on the processing

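Most results kept their direction and their side of the threshold, and the following did not. Alternatives that used 1 pair of the uninjured medaka samples, removed the 6% of cells with the highest doublet scores or scaled by library totals only, were chosen after seeing the data. With zebrafish uninjured replicates 3 and 4 only, zebrafish endothelial *hbegfa* turned to 2.24 at 3 dpi and 2.64 at 14 dpi (log2 fold change), cardiomyocyte *erbb2* to -0.31 at both times, epicardial *egfra* at 14 dpi to 0.48 and the difference in the *nrg1* share at 14 dpi to -0.25 percentage points. Epicardial *hbegfb* was then 3.05 (adjusted p of 0.0731), and the paired differences were 0.39 for *erbb2* between cardiomyocytes and endothelial cells and 0.82 for *hbegfa* between endothelial and epicardial cells. Thinning turned the difference in the *nrg1* share at 3 dpi to -0.30 points at 1000 UMIs and -0.45 at 2000 UMIs. Medaka cardiomyocyte *erbb4a* at 3 dpi turned to 0.13 with uninjured replicates 1 and 2 only, and leukocyte *hbegfa* at 14 dpi to -0.092 with 3 and 4 only. With the opposite pairs both passed, at -1.33 for *erbb4a* and 1.52 for *hbegfa* (adjusted p of 0.0203 and 0.0281). Leukocyte *hbegfa* at 3 dpi missed the threshold without a filter (1.46), without the 14 dpi samples (1.42), with uninjured replicates 3 and 4 only (0.82) and without the highest doublet scores (1.38). Thrombocyte *hbegfa* missed it without a filter (-0.86) and at 15% mitochondrial UMIs (-1.04), and without a filter 2 medaka fits of members passed at 3 dpi. The interaction of *hbegfa* passed in endothelial cells with DESeq2 (-3.21) and at a cluster resolution of 3.0 (-3.82), and in leukocytes with medaka uninjured replicates 1 and 2 only (-3.29). Genes called in medaka thrombocytes at 3 dpi numbered 540, against 358 with at least 500 genes per cell, 11 at 15% mitochondrial UMIs and 290 with uninjured replicates 1 and 2 only.

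With each sample left out in turn, medaka leukocyte *hbegfa* at 3 dpi ran from 1.14 to 1.72, zebrafish epicardial *hbegfb* from 3.12 to 4.09, zebrafish endothelial *hbegfa* at 14 dpi from -0.87 to 0.20, the *hbegfa* interaction from -3.59 to -2.49 in endothelial cells and from -0.33 to 0.80 in thrombocytes, and the difference in the *nrg1* share at 14 dpi from 0.45 to 3.65 points. Genes called at 3 dpi ran from 2391 to 4528 in medaka endothelial cells, from 2095 to 3440 in medaka leukocytes, from 221 to 692 in medaka thrombocytes and from 2040 to 3715 in zebrafish epicardial cells. The low counts came without replicate 2 or 3 at 3 dpi in zebrafish epicardial cells, without replicate 1 or 2 at 3 dpi in medaka endothelial cells, without any replicate at 3 dpi in medaka leukocytes, and without replicate 2 or 3 at 3 dpi or uninjured replicate 4 in medaka thrombocytes. The endothelial interaction passed without zebrafish uninjured replicate 3, and medaka endothelial *hbegfa* at 14 dpi passed without replicate 2 at 3 dpi. With library totals as the only scaling, the share of called genes that were higher at 3 dpi was 88.2% against 70.0% in medaka cardiomyocytes, 61.6% against 48.2% in zebrafish endothelial cells, 63.8% against 51.5% in zebrafish epicardial cells, 43.8% against 56.9% in medaka thrombocytes and 25.0% against 57.9% in zebrafish thrombocytes. The causes were not tested.

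The samples were not treated as paired by replicate number. Of 24 same-numbered pairs, 3 deviated together with a correlation over 0.1 (range -0.205 to 0.271). Pairs with different numbers were not compared, so that this count cannot settle whether the numbers pair the samples. With the replicate block, all called members stayed past the threshold, for example zebrafish epicardial *egfra* at -2.88 and medaka endothelial *hbegfa* at 2.35, and 194 genes were called in medaka thrombocytes. Depth limits *nrg1*, *erbb3a* and *erbb3b*, and *erbb4a* in zebrafish, which have fewer than 1000 UMIs in all cells of the species.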
